A study of Rattus norvegicus with 2 samples.

Results

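The Cyp2b genes encode drug-inducible cytochromes P450 of rat liver, and Por encodes the reductase that feeds them electrons. All probes whose deposited gene symbol was Cyp2b1, Cyp2b2, Cyp2b3, Cyp2b12, Cyp2b15, Cyp2b21 or Por were taken, 7 of the 17119 symbols in the table. They hold 12 of its 41012 probes, 11 of them for the 6 Cyp2b genes and 1 for Por. Liver RNA came from male Wistar rats, 22 weeks old, that had all received 52% alcohol at 1% of body weight for 7 weeks, a regimen meant to produce a chronic alcoholic fatty liver. The propolis group (sub-group AT-EEP) was then given EEP in a 50% ethanol solution for 4 weeks, and the saline group (sub-group AT-NS) normal saline, both at 0.1% of body weight. The labels do not spell out EEP, and the series title speaks of propolis extracts. The groups therefore also differed in the ethanol that carried the extract, and the labels do not say plainly whether alcohol went on during these weeks. A pool of RNA from 6 rats was made per group and read on 1 one-colour Agilent array, so that the spread between animals was not measured and no test between the groups was possible.

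Cytochromes P450 are heme proteins of the endoplasmic reticulum that oxidise drugs, steroids and other foreign compounds, with electrons passed on from NADPH by the Por product. In rat liver Cyp2b1 and Cyp2b2 are the classical targets of phenobarbital, which acts through the nuclear receptor CAR (gene Nr1i3) and its partner RXR on an enhancer upstream of the genes. The Cyp2b proteins and their messages are very alike, so a probe made for one member can also bind the message of another, and each probe is therefore given on its own.

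Each value is a deposited log2 signal, in which a difference of 1 is a 2-fold difference in signal, and every difference is the propolis pool minus the saline pool. A probe with the letter P was taken as detected. Of the 12 probes, 10 were detected on both arrays, 1 on the propolis array only and 1 on neither. Among the 11 detected probes, 9 lay above 0 and 2 below 0, where 53.3% of all detected probes lay above 0. A total of 6 were higher by 2-fold or more in the propolis pool, where 3.99% of all 25670 detected probes were. Of these 6, 5 were detected on both arrays. The other, a dim Cyp2b21 probe, counted as detected only through the propolis array. None was lower by 2-fold or more, where 5.37% of all detected probes were. The median difference was 1.07 over the 11 probes and 0.03 over all detected probes. The 11 probes are not separate genes, as 4 of them belong to Cyp2b1. By the brightest detected probe of each gene, 3 of the 7 genes were higher by 2-fold or more, where 3.58% of all genes were. Over all genes with more than 1 detected probe, probes of the same gene disagreed with a robust SD of 0.11 log2 units per probe at mean signals of 12 or more, 0.13 at signals of 10 to 12, and 0.34 below 6. This technical SD covers the probes and spots of these 2 arrays only. It leaves out the spread between animals and any error shared by a whole pool or array. Multiples of it are therefore no test between the groups.

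Cyp2b1, the more strongly inducible of the phenobarbital-responsive pair, was higher in the propolis pool by all 4 of its probes, but by very different amounts. The probe nearest the 3′ end, at bases 81290330 to 81290389 of chromosome 1 in the deposited coordinates, had a log2 signal of 15.10 in the propolis pool and 12.92 in the saline pool (difference 2.18, 4.54-fold higher). The probe before it, at 81289963 to 81290022, had 14.10 in the propolis pool and 11.53 in the saline pool (difference 2.57, 5.96-fold higher). These probes are bright on both arrays, and their differences were 19.6 and 23.1 times the technical SD. The internal probe, at 81283700 to 81283759, had 12.04 in the propolis pool and 9.12 in the saline pool (difference 2.92, 7.57-fold higher). The wide-interval probe had a deposited interval of 3092 bases, from 81282851 to 81285942, which takes in the place of the internal probe, while the other Cyp2b1 probes have intervals of 60 bases. It had 12.71 in the propolis pool and 11.77 in the saline pool (difference 0.94, 1.92-fold higher). The sources used here do not name the genome build of these coordinates, and whether a probe lies in an exon or an intron was not determined.

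**Figure D1:**
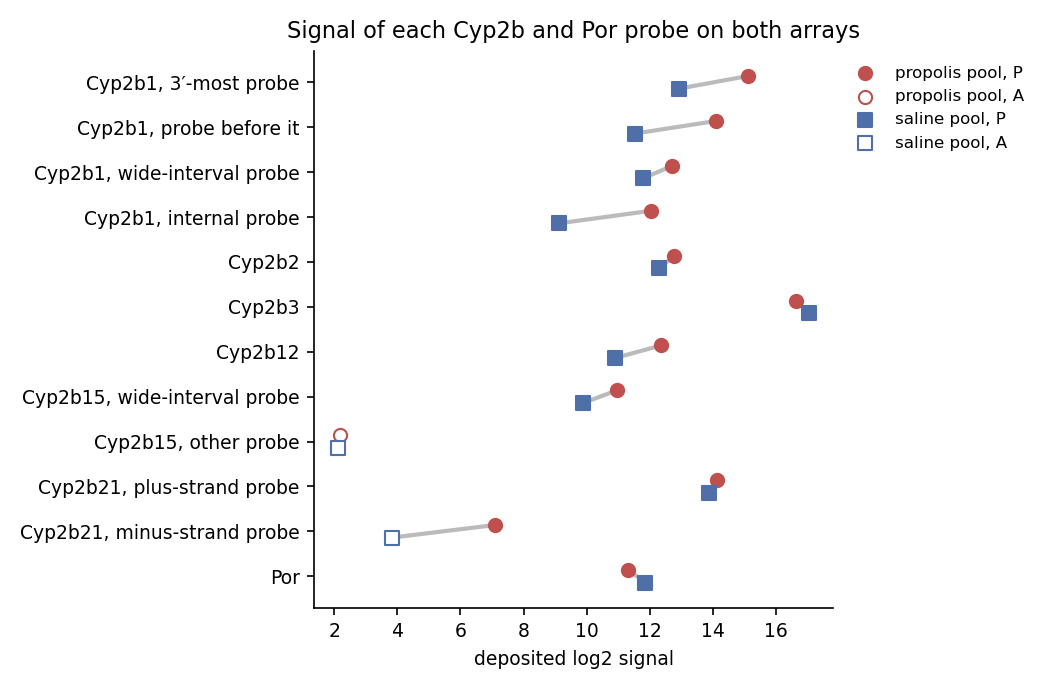
Deposited log2 signal (horizontal axis) of each of the 12 probes, with the propolis pool as circles and the saline pool as squares; filled symbols carry the letter P and open symbols the letter A. The 4 Cyp2b1 probes, Cyp2b12, the wide-interval probe of Cyp2b15 and the minus-strand probe of Cyp2b21 are shifted to the right in the propolis pool, while Cyp2b3 and Por are shifted to the left.

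The Cyp2b1 differences ranked high for their signal. By its brightest probe the gene stood at rank 19 from the top among 10979 genes detected on both arrays. Of the 897 probes detected on both arrays with a mean signal within 1 log2 unit of the 3′-most probe, 99.8% had a lower difference. Among all 2152 probes with a mean signal of 12 or more, 25 were at least 2-fold higher in the propolis pool (1.16%), 2 of them Cyp2b1 probes, and none had a larger difference than the Cyp2b1 probe at 81289963. The range over the 4 Cyp2b1 probes was 1.98 log2 units. No other of the 93 genes that had 4 or more probes with P on both arrays had a larger range, and the median range over them was 0.32. The gap between the 3′-most and the wide-interval probe was 1.24 log2 units, with a combined technical SD of 0.16.

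**Figure D2:**
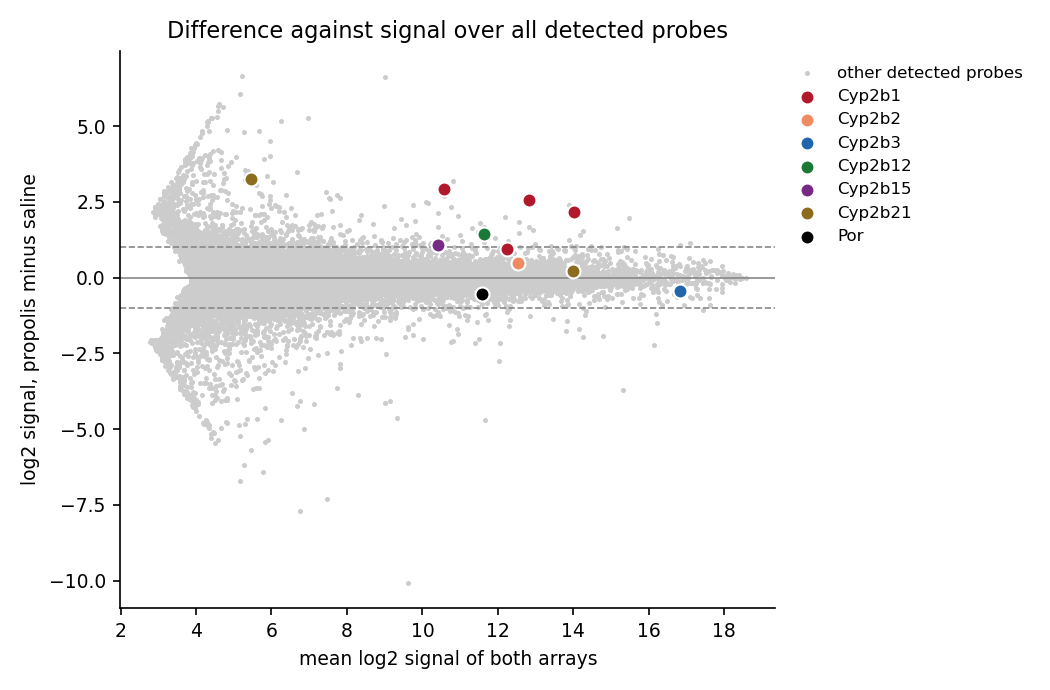
Log2 signal of the propolis minus the saline pool (vertical axis) against the mean log2 signal of both arrays (horizontal axis) for all 25670 detected probes in grey and the 11 detected Cyp2b and Por probes in colour; dashed lines mark a 2-fold difference. At mean signals of 12 or more, no grey point lies above the Cyp2b1 probe with a difference of 2.57. Cyp2b3 and Por, the latter at a mean signal of 11.59, lie below 0.

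Cyp2b2, the other phenobarbital-inducible gene, differed far less by its only probe. That probe, at 81354719 to 81354778 of chromosome 1, had a log2 signal of 12.78 in the propolis pool and 12.29 in the saline pool (difference 0.49, 1.40-fold higher), which is 4.39 times the technical SD. Its difference was 1.69 log2 units smaller than that of the 3′-most Cyp2b1 probe and 0.45 smaller than that of the wide-interval Cyp2b1 probe. In the deposited annotation the 3′-most Cyp2b1 probe and the Cyp2b2 probe are tied to the same Ensembl transcript, and all 5 probes of both genes to the same UniGene cluster. How much of either message each probe bound was not tested, so the values are those of the probes rather than of separate genes.

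The 200 bases before the first base of each gene, from RefSeq on the assembly GRCr8, show how close the inducible pair is and where the other members depart from it. They are at chr1:90645898-90646097 for Cyp2b1, chr1:90722043-90722242 for Cyp2b2, chr1:90780268-90780467 for Cyp2b3 and chr1:91135094-91135293 for Cyp2b12, all on the plus strand. Capitals mark 3 motifs searched on both strands, which do not overlap here. The first, TTGCATAA, resembles a site for C/EBP factors, ATAAAAG resembles the core box that positions the polymerase, and AGGTCA is the half-site of many nuclear receptors. The phenobarbital enhancer lies further upstream and outside this window.
Cyp2b1: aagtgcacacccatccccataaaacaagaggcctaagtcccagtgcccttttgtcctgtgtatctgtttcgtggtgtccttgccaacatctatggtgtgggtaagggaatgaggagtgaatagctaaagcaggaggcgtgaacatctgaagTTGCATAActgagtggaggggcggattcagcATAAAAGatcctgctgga
Cyp2b2: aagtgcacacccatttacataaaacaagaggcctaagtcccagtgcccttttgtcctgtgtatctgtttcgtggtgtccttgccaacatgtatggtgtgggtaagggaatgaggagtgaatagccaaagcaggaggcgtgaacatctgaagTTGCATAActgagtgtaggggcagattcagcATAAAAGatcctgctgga
Cyp2b3: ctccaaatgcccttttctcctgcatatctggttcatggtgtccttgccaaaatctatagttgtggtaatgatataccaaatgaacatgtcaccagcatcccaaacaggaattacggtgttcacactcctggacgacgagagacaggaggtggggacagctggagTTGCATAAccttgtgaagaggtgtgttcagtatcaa
Cyp2b12: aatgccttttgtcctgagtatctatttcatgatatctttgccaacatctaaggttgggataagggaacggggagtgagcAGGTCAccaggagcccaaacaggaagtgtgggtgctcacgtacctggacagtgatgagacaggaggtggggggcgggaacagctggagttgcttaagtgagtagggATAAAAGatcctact
Cyp2b1 and Cyp2b2 were identical at 193 of 200 aligned bases (96.5%), and in both TTGCATAA began 49 bases and ATAAAAG 18 bases before the gene. Cyp2b3 was identical to Cyp2b1 at 80.7% of 150 aligned bases and held TTGCATAA but not ATAAAAG. Cyp2b12 held ATAAAAG and AGGTCA but not TTGCATAA, and so did Cyp2b15, which was identical to Cyp2b12 at 95.2% of 147 aligned bases. Cyp2b21 held all 3. Among 23202 promoters of the same length, 0.672% held TTGCATAA, 4.75% ATAAAAG and 11.98% AGGTCA. These matches describe the letters and show no binding. Of the 4 members that held TTGCATAA, Cyp2b1 was past 2-fold by its brightest probe and Cyp2b2, Cyp2b3 and Cyp2b21 were not, though the dim probe of Cyp2b21 was.

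Cyp2b3, a member made constitutively in rat liver and not induced by phenobarbital, went the other way. Its probe, at 81185388 to 81185447 of chromosome 1, had a log2 signal of 16.62 in the propolis pool and 17.06 in the saline pool (difference -0.44, 1.36-fold lower). The difference was 3.93 times the technical SD, and of 199 probes with a signal within 1 log2 unit of it, 11.1% had a lower difference. The gap to the 3′-most Cyp2b1 probe was 2.62 log2 units.

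Cyp2b12, an arachidonic acid epoxygenase known from sebaceous glands of rat skin, was higher in the propolis pool. Its only probe, at 81790847 to 81790906, had a log2 signal of 12.35 in the propolis pool and 10.90 in the saline pool (difference 1.45, 2.74-fold higher), which ranked 74 among the 10979 genes. Cyp2b15, a close relative whose symbol RefSeq also lists as a synonym of Cyp2b12, had 2 probes. The wide-interval probe, from 81844177 to 81872090, had 10.96 in the propolis pool and 9.89 in the saline pool (difference 1.07, 2.10-fold higher). The other, at 81842066 to 81842125, carried the letter A on both arrays, at 2.19 in the propolis pool and 2.12 in the saline pool. Cyp2b12 and the detected Cyp2b15 probe differed from each other by 0.38 log2 units in their shift, with a combined technical SD of 0.19.

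The 2 probes assigned to Cyp2b21 did not read alike. The bright probe, at 81581501 to 81581560 on the plus strand, had a log2 signal of 14.11 in the propolis pool and 13.88 in the saline pool (difference 0.24, 1.18-fold higher). The dim probe, at 81670825 to 81670884 on the minus strand, had 7.09 with the letter P in the propolis pool and 3.82 with the letter A in the saline pool. Against the lowest detected value of the saline array, 3.83, it was at least 9.60-fold higher in the propolis pool. The size rests on how low signals are treated: the measured difference was 3.27 log2 units as deposited and 1.54 with 50 signal units added before the log. The probes lie 89.3 kb apart and on opposite strands in the deposited coordinates, and RefSeq places Cyp2b21 on the minus strand of GRCr8, while the genes whose promoters are printed above lie on the plus strand. Which message each probe read was not determined.

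Por, the electron donor of these enzymes, was lower in the propolis pool. Its probe, on the minus strand of chromosome 12 from 22079298 to 22079446, had a log2 signal of 11.32 in the propolis pool and 11.86 in the saline pool (difference -0.54, 1.46-fold lower), which is 4.05 times the technical SD. Of 2376 probes of like signal, 4.88% had a lower difference. Por thus lay on the other side of 0 from 9 of the 10 detected Cyp2b probes, 4 of which belong to Cyp2b1.

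The Cyp2b probes lie in a cluster of Cyp2 genes on chromosome 1 that holds few other named and detected genes. Between the probes of Cyp2s1 and Cyp2a2 the table holds 17 probes, of which 11 are Cyp2b probes. Cyp2a1, a testosterone hydroxylase gene, had a log2 signal of 11.78 in both the propolis and the saline pool (difference 0.00), and its relative Cyp2a2 had 12.01 in the propolis pool and 11.64 in the saline pool (difference 0.37). Cyp2s1, on the other flank, had 3.95 in the propolis pool and 4.86 in the saline pool, close to the lowest detected values (difference -0.91). Cyp2g1, an olfactory P450, and Cyp2a3 were detected on neither array. Of 9 detected neighbour genes, none differed by 2-fold or more, where 3.58% of all genes were higher and 5.09% lower by as much. With only 9 genes, a count of 0 is near those shares. Among the 9 were Cyp2f4, Cyp2t1, Snrpa and the unrelated Itpkc (0.28), Rab4b (-0.13) and Egln2 (-0.13). The median difference of the 9 was -0.09. In the deposited coordinates Cyp2b3 precedes Cyp2b1 and Cyp2b2, whereas in GRCr8 it follows them.

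**Figure D3:**
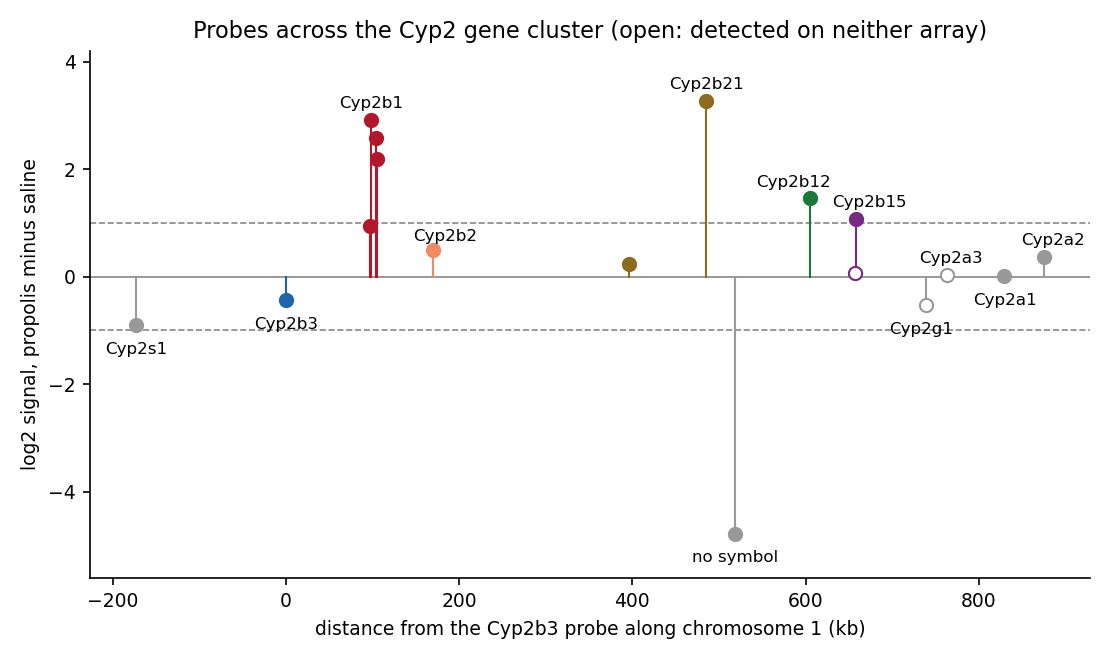
Log2 signal of the propolis minus the saline pool (vertical axis) for the 17 probes between Cyp2s1 and Cyp2a2, by distance from the Cyp2b3 probe in kb (horizontal axis); open circles are probes detected on neither array and dashed lines mark a 2-fold difference. The 4 Cyp2b1 probes stand between 0.94 and 2.92 beside Cyp2b2 at 0.49 and Cyp2b3 at -0.44, and Cyp2a1 and Cyp2a2 lie at 0.00 and 0.37. The lowest point, at -4.78, is a probe without a gene symbol that was detected in the saline pool only.

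Other genes that phenobarbital induces in rat liver were mostly higher in the propolis pool as well. Each gene was read by its brightest detected probe, and 11915 genes entered, with a median difference of 0.02; 3.58% of them were higher by 2-fold or more and 5.09% lower by 2-fold or more. Of 28 detected genes on this list, 23 lay above 0, where 52.4% of all genes did. By the brightest probes, 10 were higher by 2-fold or more and none was lower by as much, and the median was 0.73. With P on both arrays required, 9 were higher by 2-fold or more. With 50 signal units added before the log, 7 were, so that part of the count rests on how low signals are treated. Below 0 lay Cyp2c7 (-0.33), Gadd45b (-0.33), Alas1 (-0.26), Abcc2 (-0.15) and Cyp3a62 (-0.11). The 3 other detected Cyp2c7 probes lay between -1.10 and -0.63, which passes 2-fold at the low end. Akr7a3, an aldehyde reductase, had a log2 signal of 15.08 in the propolis pool and 12.68 in the saline pool (difference 2.40). The efflux pump gene Abcb1a, detected in the propolis pool only, was at least 3.35-fold higher. The aldehyde dehydrogenase gene Aldh1a1 differed by 1.58, the glutathione transferase gene Gstm3 by 1.55 and the glucuronosyltransferase gene Ugt2b1 by 1.40. Cyp3a2, a steroid hydroxylase also under control of the receptor PXR, differed by 1.13 (17.67 in the propolis pool, 16.54 in the saline pool), and the microsomal epoxide hydrolase gene Ephx1 by 1.11 (13.54 in the propolis pool, 12.43 in the saline pool). Several of these genes also respond to other signals, and members of the P450, transferase and glucuronosyltransferase families share sequence with relatives. The list was chosen with earlier results of these data known, so its counts are no independent test.

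The receptors and their partners showed no common direction. Nr1i3, which encodes CAR, had a log2 signal of 10.59 in the propolis pool and 9.74 in the saline pool (difference 0.85, 1.80-fold higher), and its second probe differed by 0.97. Nr1i2, which encodes PXR, had 12.30 in the propolis pool and 12.88 in the saline pool (difference -0.59), and Rxra, the common partner, differed by -0.18. Of 24 detected genes of CAR and PXR control, 10 lay above 0 and 14 below 0, with a median of -0.05. One gene of this list, Foxa2, a liver transcription factor, was at least 2-fold higher, at 12.48 in the propolis pool and 10.79 in the saline pool (difference 1.69). Nr0b2, the corepressor SHP, was the 1 gene at least 2-fold lower, at 12.92 in the propolis pool and 14.69 in the saline pool (difference -1.77). The glucocorticoid receptor gene Nr3c1 differed by 0.48, with its other probes between 0.42 and 0.66.

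Partners in electron transfer lay on the other side of 0 from Por, some of them within the technical SD. All 7 detected genes lay above 0, where 52.4% of all genes did, and none was at least 2-fold apart, with a median of 0.15. Cytochrome b5, Cyb5a, which can pass an electron to P450 enzymes, had 15.47 in the propolis pool and 15.02 in the saline pool (difference 0.46). Pgrmc1, a heme-binding partner of P450 enzymes, differed by 0.41 and the cytochrome b5 reductase gene Cyb5r3 by 0.36 (0.18 by a second probe). Cyb5b differed by 0.15, close to its technical SD of 0.13. Cyb5r4 (0.08), Cyb5r1 (0.06) and Pgrmc2 (0.05) lay within their technical SDs of 0.20, 0.17 and 0.17. Second probes of Cyb5b and Cyb5r1 lay at -0.11 and -0.02, and that of Pgrmc2 at 0.18.

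Genes that make and break heme, the cofactor of every P450, lay on both sides of 0, with 7 of 15 above, none at least 2-fold apart and a median of -0.04. Alas1, the rate-limiting synthase of hepatic heme and itself a phenobarbital-responsive gene, had 15.70 in the propolis pool and 15.97 in the saline pool (difference -0.26). Of the last synthesis steps, Cpox differed by 0.40, Ppox by -0.18 and Fech by 0.43, while the heme oxygenase gene Hmox1 and the earlier synthesis gene Uros both differed by -0.35 and the biliverdin reductase gene Blvrb differed by 0.32.

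The rest of the Cyp2 family went both ways. Of 22 detected genes, 11 lay above 0 and 11 below 0, with 2 higher and 4 lower by 2-fold or more, and the median was close to 0. With 50 signal units added before the log, 2 were higher and 1 lower by 2-fold or more. Cyp2j4, an arachidonic acid epoxygenase, had 13.65 in the propolis pool and 11.98 in the saline pool (difference 1.66). Cyp2e1, the ethanol-oxidising P450, had 17.37 in the propolis pool and 16.30 in the saline pool (difference 1.06). Cyp2ab1 (-1.53) and Cyp2c12 (-1.42), a female-type steroid hydroxylase of rat liver, were lower, and Cyp2w1, detected in the saline pool only, was at least 2.10-fold lower.

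**Figure D4:**
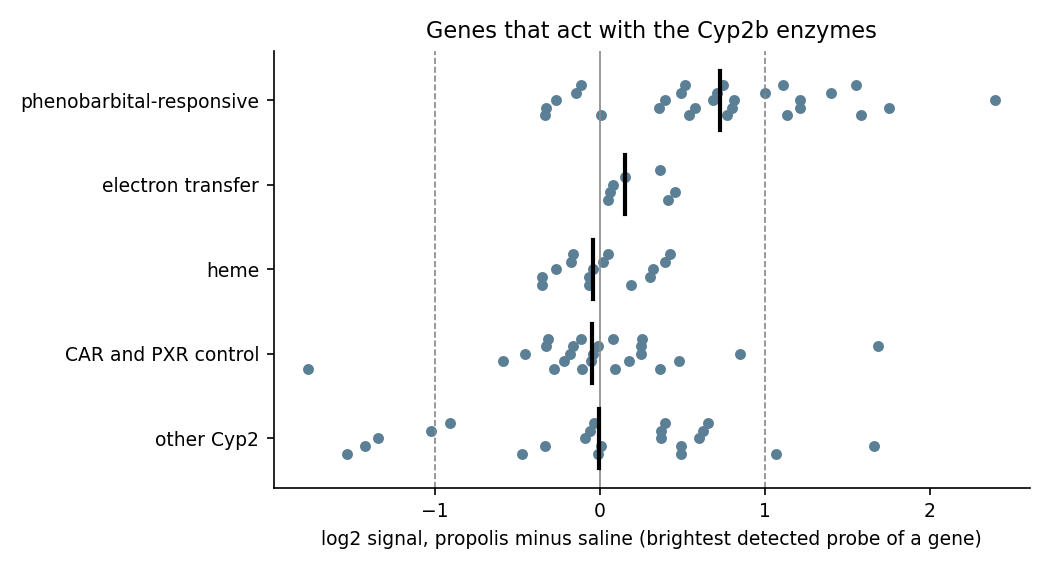
Log2 signal of the propolis minus the saline pool (horizontal axis) for each detected gene of 5 lists, 1 point per gene by its brightest probe, with a black line at the median and dashed lines at a 2-fold difference; the height of a point within a list has no meaning. The phenobarbital-responsive genes have a median of 0.73, against medians between -0.05 and 0.15 in the other 4 lists. The lists share genes and were chosen with earlier results of these data known.

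Hepatocyte markers bore out the labelled tissue, with all 15 detected. Markers of hepatocytes around the central vein lay mostly above 0, and Kupffer and blood cell markers mostly below 0. Of the 15 hepatocyte markers, 12 lay below 0, led by Fga (-0.66), Hpx (-0.66) and Tat (-0.62), while albumin, Alb, differed by 0.21. Of all genes, 52.4% lay above 0, a share that stands beside each marker count in this paragraph. Of 10 markers of hepatocytes around the central vein, where Cyp2b enzymes are mainly found, 8 lay above 0, where 52.4% of all genes did. The largest were the ammonium transporter gene Rhbg (1.09), Cyp2e1 (1.06) and Slc1a4, detected in the propolis pool only and at least 1.71-fold higher. Glul differed by 0.44 (0.13 by a second probe), while Lgr5 (-0.33) and Axin2 (-0.20) lay below 0. The log2 of the summed signal of these 10 markers was 17.77 in the propolis pool and 16.91 in the saline pool. Without Cyp2e1, the brightest of them, it was 15.74 in the propolis pool and 15.37 in the saline pool. Of 10 Kupffer cell markers, 9 lay below 0, with Marco at -2.53, Cd163 at -0.77 (-0.11 by a second probe) and Csf1r at -0.69. The summed signal of the 10 was 16.24 in the propolis pool and 16.81 in the saline pool. All 11 detected blood cell markers lay below 0, including S100a8 (-1.60) and Alas2 (-1.12), with Mpo detected in the saline pool only (at least 3.40-fold lower), and summed signals of 11.97 in the propolis pool and 12.83 in the saline pool. Of 3 detected bile duct markers, Epcam lay at 0.67, Krt19 at -0.66, and Spp1 was detected in the saline pool only (at least 1.31-fold lower). Stellate and endothelial markers had 4 of 7 above 0, with Pecam1 at -0.63, Lrat at 0.48 and Stab2 at -0.39. Of 11 gut, skin and pancreas markers, 8 were detected on neither array, among them Vil1, Krt10 and Prss1, and the others were Fabp2 (-0.68), Krt14 (-0.52) and Krt5 (0.46). The part of these markers in the Cyp2b differences was not tested, and in bulk RNA fewer cells of a type and less RNA per cell cannot be told apart.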

How the data were processed

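Total RNA of 6 livers per group, with integrity numbers above 8.5, formed 1 pool, which was labelled with Cy3 for 1 Agilent one-colour array, per the labels' protocols. Per the submitters' processing notes, the scanner images went through Agilent Feature Extraction 9.5. The authors deposited log2 signals, a linear fold ratio between the arrays and flags (P, M or A) for each probe. The sources used here do not give the background correction, the normalization, the genome build or what the flags mean. The sorted log2 columns differ by at most 0.0255 with medians of 5.07 on both arrays, as after quantile normalization. The log2 of the deposited fold ratio matches the propolis minus the saline value within 1.84e-07. The deposited series matrix gives these log2 values rounded, off by at most 0.005, and covers the 23054 probes that have P on each array, with medians of 7.53 for propolis and 7.52 for saline, uncentred.

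Differences were computed per probe; the design expected unnormalized signals, and values were used as deposited. With 1 array per group no p-value was computed, and counts use a rule of at least 2-fold. For a probe with P on 1 array, the fold is a bound against the higher of its own dim value and the lowest P value of that array. The technical SD is 1.4826 times the median absolute deviation of the gap between a gene's 2 brightest probes (P on both arrays, 2596 genes), divided by the square root of 2; its recovery was tested on simulated data. Symbols were updated by Entrez gene ID to RefSeq names of GRCr8 (20959 of 21871 probes with a symbol matched; 19141 had none), and all 7 members had a RefSeq promoter, of which that of Por was left out because it lies wholly within the span RefSeq gives the gene. No further probe matched a Cyp2b gene or Por by gene ID or RefSeq accession. Probe sequences were not used here. Promoters were aligned globally with free end gaps (match 1, mismatch -1, gap opening -2, gap extension -0.5), which favours the best-matching stretch.

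Named were all member probes, of each gene list the 5 genes furthest from 0 (3 for markers) and a set of receptor, heme and P450 genes. Names beyond these were chosen after their values were seen. They are the other neighbour genes, undetected genes, Alb, Ppox, Cyb5r1, Pgrmc2, Cyp2c7, Gadd45b, Abcc2, Cyp3a62, Lgr5, Axin2 and Glul. With 2 arrays a pattern is a single difference, so genes of like pattern were not sought. Members and lists were chosen with earlier results of these data known, and the lists share genes. Alternatives were other scalings, the series matrix, 50 signal units added before the log, other thresholds, filters on detection, the mean of a gene's probes and marker sums without the brightest gene. Python 3.11.15, numpy 2.4.6, pandas 2.3.3, statsmodels 0.14.6 and matplotlib 3.10.9 were used. Precision is limited by there being 2 arrays.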

Additional observations from a re-analysis of the deposited data

How the results depend on the processing

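No paired analysis was possible because each group has 1 array. Over 31 results and the alternatives counted here, 129 of 136 values stayed within the technical SD or, for counts, within 1.5 times the count given. No difference of 2-fold or more changed sign. Some of these values could not change. Lists whose detected genes all had P on both arrays gave the same values under that filter. Counts of 0 had to stay 0 with 50 units added or at 3-fold. The share that stayed is therefore no measure of stability. Centring each array on its median or 75th percentile, quantile normalization and the series matrix are left out of these counts and say nothing about stability, because the deposited columns already share a distribution and the matrix holds the same values rounded. The loess centring (span 0.3) moved no result beyond these limits. Of the 22 values for single Cyp2b and Por probes, 1 moved: with 50 signal units added before the log, the difference of the dim Cyp2b21 probe was 1.54, which follows from its low signal. With the same 50 units, 1 other Cyp2 gene was at least 2-fold lower in place of 4. At 1.5-fold, 16 phenobarbital-responsive genes were higher, 2 genes of CAR and PXR control were higher and 2 lower, 5 other Cyp2 genes were higher, and 1 neighbour gene was lower, as a lower threshold must give equal or larger counts. Chosen after seeing the data, the summed signal of each marker list was also taken without its brightest gene: the difference moved beyond the technical SD in 3 lists, to 0.37 for the markers around the central vein in place of 0.86, to -0.76 for bile duct in place of 0.37, a change of sign, and to -0.15 for gut, skin and pancreas in place of -0.53. The dim Cyp2b21 probe is not in the series matrix and has no value there. Depth cannot be judged from these files, and signals near the lowest P value, 3.83 on both arrays, give sizes that are uncertain.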

Other observations

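A probe without a gene symbol lies inside the Cyp2b cluster, between the dim Cyp2b21 probe and the Cyp2b12 probe, at bases 81704062 to 81704121 of chromosome 1 on the plus strand in the deposited coordinates, and was chosen after its values were seen. It had a log2 signal of 1.86 with the letter A in the propolis pool and 6.64 with the letter P in the saline pool, a signal at least 7.00-fold lower with propolis, on the opposite side from the Cyp2b probes on its flanks. Its transcript was not identified. Genes of the cluster named Cyp2b14 and Cyp2b14l1 in RefSeq matched no probe by gene ID or accession.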
